A study of Homo sapiens with 8 samples.

Results

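Collagen genes code for the chains of the collagens, the main structural proteins of the extracellular matrix. They were taken here as all rows of the deposited expression table whose symbol is COL, a number, A and a number, which gave 44 genes of 20323. The measurements were made in H2452, an established line of human pleural mesothelioma labelled as biphasic (epithelioid and sarcomatoid cells in 1 tumour of the lining of the lung) and as wild type. One group was exposed for 48 h to 20 nM deoxypodophyllotoxin (DPT), a lignan from plants that stops tubulin from assembling into microtubules, and the control group received the solvent DMSO for the same time. Each group had 4 libraries of polyadenylated RNA, described as biological replicates of 1 cell line. The series title places the study in work on cell death that depends on mitosis, and the comparison asks which messages differ between DPT and DMSO.

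A collagen molecule is a triple helix of 3 chains, which may be copies of 1 chain or products of different genes. Fibrillar collagens assemble into the cross-striated fibrils that give tissue its tensile strength, and type IV collagen forms the sheet-like network of basement membranes. Type VI forms beaded microfilaments, FACIT collagens (fibril-associated collagens with interrupted triple helices) sit on the surface of fibrils, type VIII forms hexagonal networks, type VII anchors basement membranes to the tissue beneath, and the transmembrane collagens span the cell membrane. Multiplexins such as type XVIII lie in basement membranes. The mesothelium rests on such a membrane, and mesothelial cells as well as fibroblasts make matrix collagens.

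Library totals were 14964432 to 17205391 expected counts, so that 1 CPM (counts scaled to a common library size) was 14.8 to 17.1 counts. In a principal component analysis of all tested genes, DMSO replicate 3 at 40.76 and DPT replicate 2 at 29.26 stood apart on the leading component from the other 6 libraries, which lay between -25.6 and -1.02. These 2 libraries are called the pair below. The labels name nothing that the pair shares, so the main counts of genes are given from all 8 libraries, from a fit with a term for the pair, and from the other 6 libraries (3 against 3). The pair was picked from the same expression values that were tested, so adjusted p-values from the latter 2 fits may be too small. Of the 44 collagens, 23 had enough counts to be tested.

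FPKM (fragments scaled by gene length and by library size) allows levels to be compared between genes, and 20 collagens reached a mean of at least 1 FPKM in a group. COL12A1 and COL8A1 led. By mean FPKM over all libraries, COL12A1 ranked 261 and COL8A1 ranked 294 among the 20323 genes, with COL4A2 next among the collagens at 646. The summed level of all 44 collagens was 1092, 1042, 904 and 1115 FPKM in DMSO replicates 1 to 4 and 733, 671, 624 and 657 FPKM in DPT replicates 1 to 4. Every DPT library thus lay below every DMSO library, with a mean of 671 ± 45.7 FPKM (SD, n = 4) against 1038 ± 94.6 (SD, n = 4). Collagen messages made up 0.649% ± 0.0563 (SD, n = 4) of the DMSO libraries' counts and 0.407% ± 0.0250 (SD, n = 4) of those of the DPT libraries. In whole-culture RNA, fewer cells of a kind and less RNA per cell cannot be told apart.

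**Figure D1:**
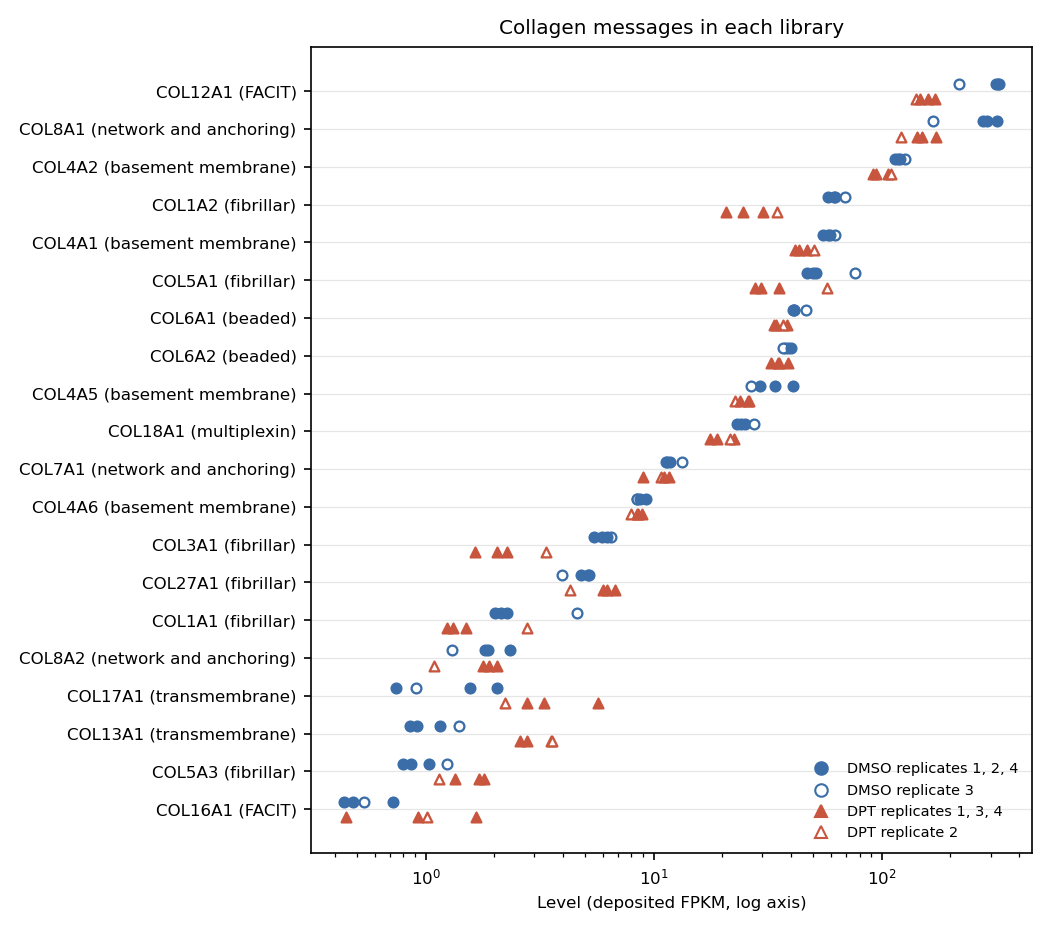
Level of the 20 collagens with a mean of at least 1 FPKM in a group, in each library (log axis in FPKM, circles for DMSO, triangles for DPT, open symbols for DMSO replicate 3 and DPT replicate 2). COL12A1 and COL8A1 stand highest, and COL1A2, COL3A1 and COL12A1 show DPT libraries below all DMSO libraries.

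Among the 23 tested collagens, 9 fell and 2 rose in DPT (edgeR quasi-likelihood test, adjusted p under 0.05 over all genes). The 11 called genes are 47.8% of the tested collagens, beside 11.0% of all 12648 tested genes. The 9 that fell are 39.1% of them, beside 5.29% of all tested genes that fell, and 5.68% of all tested genes rose. The genes that fell were COL1A2, COL3A1, COL4A1, COL4A2, COL4A5, COL6A1, COL8A1, COL12A1 and COL18A1, and those that rose were COL13A1 and COL17A1. The median log2 fold change was -0.25 over the 23 collagens and -0.002 over all tested genes. COL1A2 and COL3A1 fell by at least 2-fold, as did 0.561% of all tested genes (0.775% with the pair term), and from the other 6 libraries COL12A1 joined them (1.03% of all tested genes). Without DMSO replicate 1, 2 or 4 or DPT replicate 3 or 4 the number that fell was 5. Of the 23 tested collagens, 11 had CPM that did not overlap between the DPT and DMSO libraries, beside 18.2% of all tested genes. They were the same 11 that were called, from the same libraries, so this adds no separate evidence.

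With a term for the pair, 13 of the 23 collagens fell and 4 rose. That is 73.9% of them, beside 34.0% of all tested genes (17.0% fell and 16.9% rose). From the other 6 libraries the counts were again 13 and 4, beside 34.1% of all tested genes (17.1% fell and 17.0% rose). All 11 genes called from 8 libraries were called in the same direction in both of these fits. Of the 17 called from 6 libraries, 16 had a difference of the same sign between DPT replicate 2 and DMSO replicate 3, which that fit did not use, and the exception was COL5A3. The share of such matches over all genes called from 6 libraries was not worked out, so the count is description only.

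**Figure D2:**
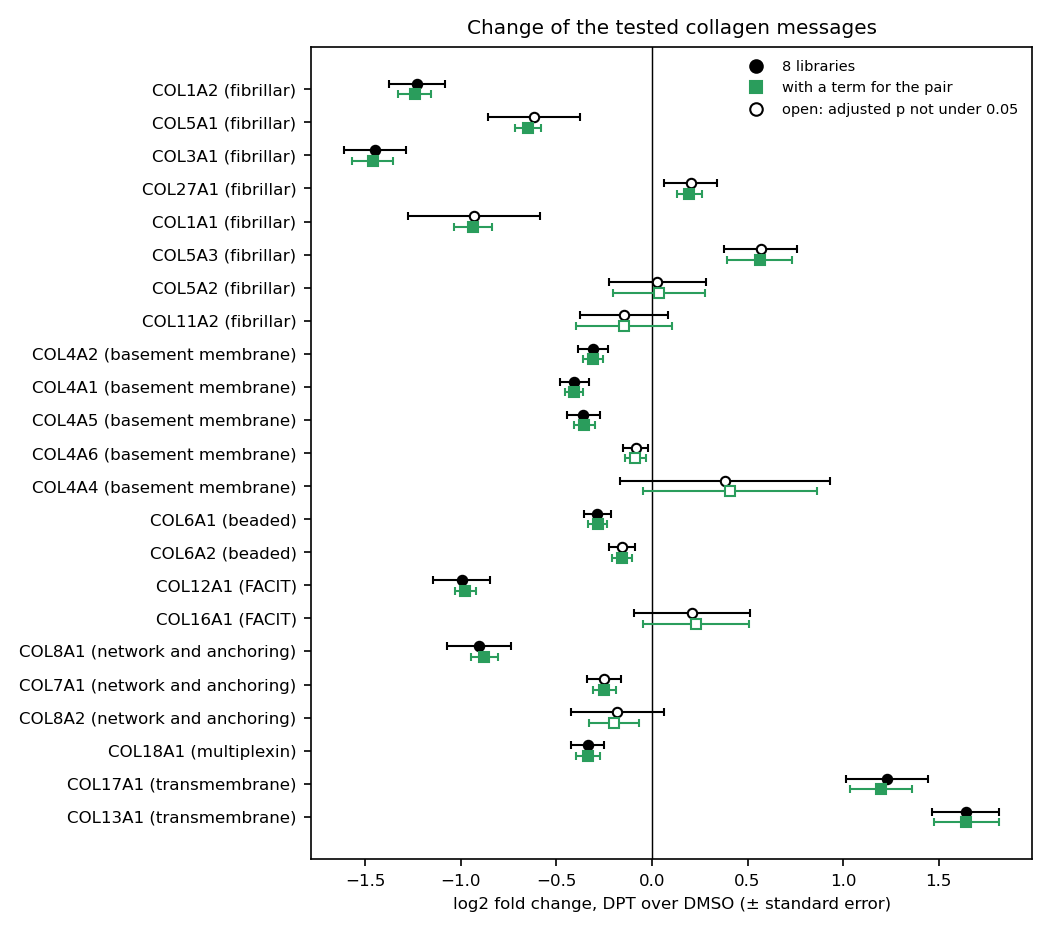
Log2 fold change of the 23 tested collagens, DPT over DMSO, with its standard error, from 8 libraries (black circles) and with a term for the pair (green squares), filled where the adjusted p is under 0.05. COL3A1 and COL1A2 lie farthest to the left, COL13A1 and COL17A1 farthest to the right, and COL5A1 and COL1A1 are filled in the fit with the pair term alone.

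Fibrillar collagens were led by COL1A2 and COL5A1. Of the 8 tested, COL1A2 and COL3A1 fell and the other 6 did not pass the test, with a class median of -0.38 on the log2 scale. With the pair term, and from the other 6 libraries, COL1A1 and COL5A1 also fell, and COL5A3 and COL27A1 rose.

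COL1A2, the second chain of type I collagen (ENSG00000164692, GRCh38 chr7:94394561-94431232, plus strand), stood at 62.4, 58.3, 69.1 and 62.1 FPKM in DMSO replicates 1 to 4 and at 30.2, 34.9, 20.8 and 24.7 FPKM in DPT replicates 1 to 4. The groups were far apart, and the pair was the highest library in each. The fall was 2.34-fold, with a log2 fold change of -1.23 (SE 0.146, edgeR adjusted p = 0.00157). Within the pair the log2 difference was -1.01, and from the other 6 libraries it was -1.32.

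COL3A1, the chain of type III collagen that co-assembles with type I (ENSG00000168542, chr2:188974320-189012746), was far less abundant than COL1A2. Its levels were 5.96, 5.50, 6.50 and 6.23 FPKM in DMSO and 2.27, 3.36, 1.64 and 2.06 FPKM in DPT. No library overlapped, and DPT replicate 2 was again the highest of its group. The fall of 2.73-fold, at a log2 fold change of -1.45 (SE 0.162, edgeR adjusted p = 0.0012), was the largest among the collagens tested in 8 libraries.

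COL1A1, the first chain of type I collagen (ENSG00000108821, chromosome 17), measured 2.03, 2.14, 4.60 and 2.27 FPKM in DMSO and 1.24, 2.80, 1.32 and 1.50 FPKM in DPT. The pair was more than 1 log2 unit above the others of its groups (1.08 and 1.14), so that DPT replicate 2 exceeded 3 DMSO libraries. The log2 fold change of -0.93 (SE 0.345) did not pass in 8 libraries (edgeR adjusted p = 0.118) and passed with the pair term at -0.94 (edgeR adjusted p = 2.45e-06). Without DPT replicate 2 it was -1.32 (edgeR adjusted p = 0.0143), and DESeq2 called it in 8 libraries (adjusted p = 0.0399). In the 7 fits that left out another single library it did not pass (edgeR adjusted p up to 0.266).

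COL5A1, a type V chain known to regulate the width of type I fibrils (ENSG00000130635, chromosome 9), measured 49.9, 47.1, 76.4 and 51.4 FPKM in DMSO and 35.5, 57.7, 27.8 and 29.6 FPKM in DPT. DPT replicate 2 again overlapped the DMSO libraries, and the pair lay 0.61 and 0.91 log2 units above the others of its groups. The log2 fold change was -0.62 (SE 0.240, edgeR adjusted p = 0.136) in 8 libraries and -0.65 with the pair term (edgeR adjusted p = 3.28e-06). Without DPT replicate 2 it was -0.90 (edgeR adjusted p = 0.00628). In the 7 fits that left out another single library it did not pass (edgeR adjusted p up to 0.298).

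COL5A3, another type V chain, measured 1.04, 0.861, 1.24 and 0.799 FPKM in DMSO and 1.72, 1.15, 1.80 and 1.34 FPKM in DPT. Its log2 fold change of 0.57 did not pass in 8 libraries (edgeR adjusted p = 0.0873). It passed with the pair term at 0.56 (edgeR adjusted p = 0.0175) and in DESeq2 (adjusted p = 0.0445). It also passed without DMSO replicate 3 (edgeR adjusted p = 0.0429) or DPT replicate 2 (0.0303). In the 6 fits that left out another single library it did not pass (edgeR adjusted p up to 0.223). Within the pair the difference was -0.12. COL27A1, a fibrillar collagen of cartilage, measured 5.18, 5.14, 3.98 and 4.81 FPKM in DMSO and 6.75, 4.31, 6.25 and 6.01 FPKM in DPT. Here the pair was the lowest library of each group, and the log2 fold change of 0.20 passed with the pair term alone among the fits to 8 libraries (edgeR adjusted p = 0.393 without the term, 0.0275 with it). COL5A2 (0.327 to 0.64 FPKM) and COL11A2 (0.26 to 0.472 FPKM) were low throughout, with log2 fold changes of 0.03 and -0.15 that passed in neither fit.

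Basement membrane collagens were led by COL4A2, the most abundant collagen message after COL12A1 and COL8A1, and by COL4A1. Of the 5 tested genes of this class, COL4A1, COL4A2 and COL4A5 fell by small amounts, and COL4A6 and COL4A4 did not pass. The same counts came from the pair term and from the other 6 libraries.

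COL4A1 and COL4A2, the chains of the common type IV molecule, are neighbours that are read away from each other from a shared stretch of DNA, which is printed here because both messages fell. In RefSeq (GRCh38.p14) their starts, at positions 110307157 and 110307284 of chromosome 13, lie 126 bases apart. The sequence between them, chr13:110307158-110307283 on the plus strand (the strand of COL4A2), follows, with a CCAAT box and a GC box in capitals.
COL4A1 to COL4A2: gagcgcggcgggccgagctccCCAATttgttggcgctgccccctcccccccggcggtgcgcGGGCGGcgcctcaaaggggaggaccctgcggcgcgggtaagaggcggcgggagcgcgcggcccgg
Of these bases 80.2% are G or C. Searched on both strands, the window holds CCAAT (found in 21.1% of 34943 RefSeq promoter windows of this length) and GGGCGG (in 34.5%) once each, and neither TATAAA (5.9%) nor TGANTCA (3.5%).

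COL4A2 (ENSG00000134871, GRCh38 chr13:110305812-110513209, plus strand) measured 118, 113.9, 126.7 and 120.8 FPKM in DMSO and 106.5, 109.8, 91.5 and 94.1 FPKM in DPT. COL4A1 (ENSG00000187498, chr13:110148963-110307233, minus strand) measured 58.0, 55.1, 62.7 and 59.6 FPKM in DMSO and 47.1, 50.3, 41.8 and 43.5 FPKM in DPT. In both genes every DPT library lay below every DMSO library, and the pair was the highest library of each group. The log2 fold change of COL4A1 was -0.41 (SE 0.0754, edgeR adjusted p = 0.0102), and that of COL4A2 was -0.31 (SE 0.0785, edgeR adjusted p = 0.0348). The call of COL4A2 was lost (edgeR adjusted p 0.0527 to 0.113) when any library but the pair was left out, and with library totals as the only scaling (0.0548). The gene models of COL4A1 and COL4A2 overlap at their starts on opposite strands, and their reads there can be told apart only if counting used the strand.

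COL4A5, which pairs with COL4A6 in another type IV molecule (ENSG00000188153, chromosome X), measured 40.9, 29.1, 26.6 and 34.1 FPKM in DMSO and 25.8, 22.8, 23.9 and 26.2 FPKM in DPT. The groups lay close together without overlap, and the pair was the lowest library of each, unlike in COL4A1 and COL4A2. The deposited FPKM of DMSO replicate 1 was worked out on a shorter gene length, since its count and FPKM together give 3.39 kb where the other libraries give 4.01 to 4.28 kb. The test used counts, with a log2 fold change of -0.36 (SE 0.0838, edgeR adjusted p = 0.0257), and the call was lost (0.0544 to 0.084) when any library but the pair was left out. COL4A6 measured 9.27, 8.44, 8.45 and 8.75 FPKM in DMSO and 8.57, 7.94, 8.94 and 8.47 FPKM in DPT. Those libraries overlapped, with a log2 fold change of -0.09 (edgeR adjusted p = 0.445). COL4A4, a chain of the kidney basement membrane, lay between 0.033 and 0.536 FPKM, with a log2 fold change of 0.38 (edgeR adjusted p = 0.715).

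Beaded filament collagen was represented by 2 tested genes, COL6A1 and COL6A2, of which COL6A1 fell in 8 libraries and both fell with the pair term and from the other 6 libraries. COL6A1 measured 40.7, 41.1, 46.7 and 41.3 FPKM in DMSO and 38.5, 36.8, 34.2 and 33.8 FPKM in DPT. All DPT libraries lay below the DMSO libraries, by a log2 fold change of -0.29 (SE 0.0696, edgeR adjusted p = 0.0295). That call was lost (0.0625 to 0.0986) without DMSO replicate 1, 2 or 4 or DPT replicate 3 or 4, and with library totals as the only scaling (0.0528). COL6A2 measured 37.9, 38.8, 36.8 and 39.9 FPKM in DMSO and 38.8, 35.0, 32.7 and 35.5 FPKM in DPT. DPT replicate 1 lay among the DMSO libraries, and the log2 fold change of -0.16 (edgeR adjusted p = 0.169) passed only with the pair term (0.0287) or without the pair (0.0242). COL6A3, the large chain that joins COL6A1 and COL6A2 in the usual type VI molecule, was close to undetected, at 0.008 to 0.131 FPKM and 1 to 8 counts in a library.

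FACIT collagens consisted almost wholly of COL12A1, which binds type I fibrils and made up 28.4% of all collagen FPKM in DMSO and 23.1% in DPT. COL12A1 (ENSG00000111799, GRCh38 chr6:75084326-75206051, minus strand) measured 328, 317, 219 and 322 FPKM in DMSO and 171, 141, 148 and 160.3 FPKM in DPT. The pair was the lowest library of each group, the reverse of COL1A2, COL1A1, COL4A1 and COL4A2, and the groups still did not overlap. The fall was 1.99-fold, a log2 fold change of -0.99 (SE 0.151, edgeR adjusted p = 0.00434). With the pair term it was -0.98 (edgeR adjusted p = 3.31e-09), from the other 6 libraries -1.06, and within the pair -0.72.

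The 250 bases before the RefSeq start of COL12A1 (GRCh38.p14, chr6:75206054-75206303, read on the minus strand) are printed as those of the most abundant collagen message, with a GC box in capitals.
COL12A1: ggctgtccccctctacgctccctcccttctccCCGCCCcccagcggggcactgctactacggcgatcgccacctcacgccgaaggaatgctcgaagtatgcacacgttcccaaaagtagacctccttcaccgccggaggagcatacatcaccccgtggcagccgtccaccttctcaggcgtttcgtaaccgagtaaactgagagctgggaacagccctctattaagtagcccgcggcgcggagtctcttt
The GC box GGGCGG stands on the opposite strand, and 42.5% of 34943 windows of this length hold one. Unlike the window between COL4A1 and COL4A2, this one holds no CCAAT (found in 32.0% of windows), and it also lacks TATAAA (10.8%) and TGANTCA (6.6%), on either strand. G and C make up 61.2% of its bases.

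COL16A1, another FACIT collagen, measured 0.722, 0.439, 0.536 and 0.482 FPKM in DMSO and 0.923, 1.01, 1.66 and 0.447 FPKM in DPT. The gene length behind these values ranged from 2.05 to 5.42 kb between libraries. In CPM it stood at 1.83, 2.03, 2.92 and 1.65 in DMSO and at 2.39, 2.70, 3.35 and 1.35 in DPT. The groups overlapped on both scales, with a log2 fold change of 0.21 (edgeR adjusted p = 0.722).

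Of the 3 tested network and anchoring collagens, COL8A1 fell, and COL7A1 also fell with the pair term and from the other 6 libraries. COL8A1, a chain of the short-chain network collagen type VIII (ENSG00000144810, GRCh38 chr3:99638475-99799226), measured 289.9, 278, 168 and 319.7 FPKM in DMSO and 174, 121, 143 and 151 FPKM in DPT. As in COL12A1, the pair was the lowest library of each group, and in FPKM DMSO replicate 3 lay below DPT replicate 1, while in CPM the groups did not overlap. The fall was 1.87-fold, with a log2 fold change of -0.90 (SE 0.168, edgeR adjusted p = 0.0105), -0.99 from the other 6 libraries and -0.53 within the pair.

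COL7A1, the anchoring fibril collagen, measured 11.3, 11.8, 13.3 and 11.5 FPKM in DMSO and 11.7, 10.8, 11.1 and 9.01 FPKM in DPT. Its log2 fold change of -0.25 did not pass in 8 libraries (edgeR adjusted p = 0.112) and passed with the pair term (0.00457). COL8A2, the partner of COL8A1, measured 2.34, 1.83, 1.31 and 1.87 FPKM in DMSO and 2.07, 1.09, 1.89 and 1.79 FPKM in DPT, and these overlapped (log2 fold change -0.18, edgeR adjusted p = 0.697).

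COL18A1, the multiplexin from which endostatin is cut, measured 25.1, 23.2, 27.6 and 24.2 FPKM in DMSO and 22.6, 21.6, 19.0 and 17.7 FPKM in DPT. It fell by 0.34 on the log2 scale (SE 0.0860, edgeR adjusted p = 0.0355). That call was lost (0.0526 to 0.111) without any 1 of the DMSO libraries or without DPT replicate 3 or 4, and with library totals as the only scaling (0.0559).

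Transmembrane collagens moved the other way. Both tested members, COL13A1 and COL17A1, rose by more than 2-fold in 8 libraries, with the pair term and from the other 6 libraries, from low levels. Such rises were found in 1.13%, 1.63% and 2.18% of all tested genes in these 3 fits. COL13A1, a collagen of cell adhesion sites and the neuromuscular junction (ENSG00000197467, GRCh38 chr10:69801867-69964275), measured 0.855, 1.155, 1.41 and 0.914 FPKM in DMSO and 3.53, 3.60, 2.58 and 2.79 FPKM in DPT. Every DPT library lay above every DMSO library, and the rise was 3.12-fold (log2 fold change 1.64, SE 0.176, edgeR adjusted p = 0.00103). Within the pair it was 1.57 on the log2 scale.

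COL17A1, the hemidesmosome collagen that holds epithelial cells to the basement membrane (ENSG00000065618, GRCh38 chr10:104031286-104085957, minus strand), measured 1.57, 2.06, 0.912 and 0.746 FPKM in DMSO and 2.78, 2.24, 3.29 and 5.71 FPKM in DPT. The gene length behind its FPKM ranged from 2.46 to 5.61 kb between libraries, so CPM is the steadier scale for it. In CPM it stood at 5.42, 5.15, 5.14 and 4.29 in DMSO and at 11.3, 7.25, 14.3 and 14.1 in DPT. DPT replicate 2 was the lowest of its group and still above all DMSO libraries. The rise was 2.35-fold (log2 fold change 1.23, SE 0.213, edgeR adjusted p = 0.00786), with 1.42 from the other 6 libraries and 0.49 within the pair.

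The remaining 21 collagens had too few counts to be tested. Of these, 16 had between 2 and 37 counts in total over the 8 libraries, with at most 12 counts and 0.244 FPKM in any library. They were the fibrillar COL2A1, COL11A1 and COL24A1, the basement membrane COL4A3, the type VI chains COL6A3 and COL6A6, the FACIT or related COL9A2, COL9A3, COL14A1, COL20A1, COL21A1 and COL22A1, and COL10A1, COL15A1, COL23A1 and COL28A1. The other 5, COL6A5, COL9A1, COL19A1, COL25A1 and COL26A1, had no count in any library, which at 3 counts per library allows up to 0.175 to 0.203 CPM. COL2A1, COL9A1 and COL10A1 are cartilage collagens, and a difference in these genes was not detectable at this depth.

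Summed by class, the ratio of DPT to DMSO was lowest for the FACIT, network and fibrillar collagens. The FACIT sum was 297 ± 51.7 FPKM in DMSO and 156 ± 13.2 in DPT (SD, n = 4), a ratio of 0.526, and the fibrillar sum was 135 ± 19.2 and 77.7 ± 19.9, a ratio of 0.578. The network and anchoring sum went from 278 ± 65.6 to 159 ± 22.4 FPKM, a ratio of 0.574. COL8A1 alone made up 264 FPKM of that sum in DMSO and 147 FPKM in DPT. Smaller differences stood in the basement membrane sum, at 220.3 ± 9.14 and 179.5 ± 12.1 FPKM (ratio 0.815), the multiplexin sum, at 25.0 ± 1.88 and 20.3 ± 2.27 FPKM (0.811), and the beaded sum, at 80.9 ± 2.12 and 71.4 ± 4.45 FPKM (0.883). The transmembrane sum was 2.42 ± 0.619 FPKM in DMSO and 6.63 ± 1.26 in DPT, a ratio of 2.74. In these sums the groups overlapped for the network and anchoring class alone, where DMSO replicate 3 at 183 FPKM lay below DPT replicate 1 at 187 FPKM. The share of COL4A2 in all collagen FPKM went from 11.6% ± 1.58 to 14.97% ± 0.940 (SD, n = 4). The mean shares of COL12A1 (28.4% ± 2.83 and 23.1% ± 1.46) and COL8A1 (25.1% ± 4.45 and 21.9% ± 2.59) were smaller in DPT. Both overlapped between the groups, as DMSO replicate 3 had 24.3% of COL12A1 and 18.6% of COL8A1. Since the classes are sums of genes already described, no test was made on them.

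**Figure D3:**
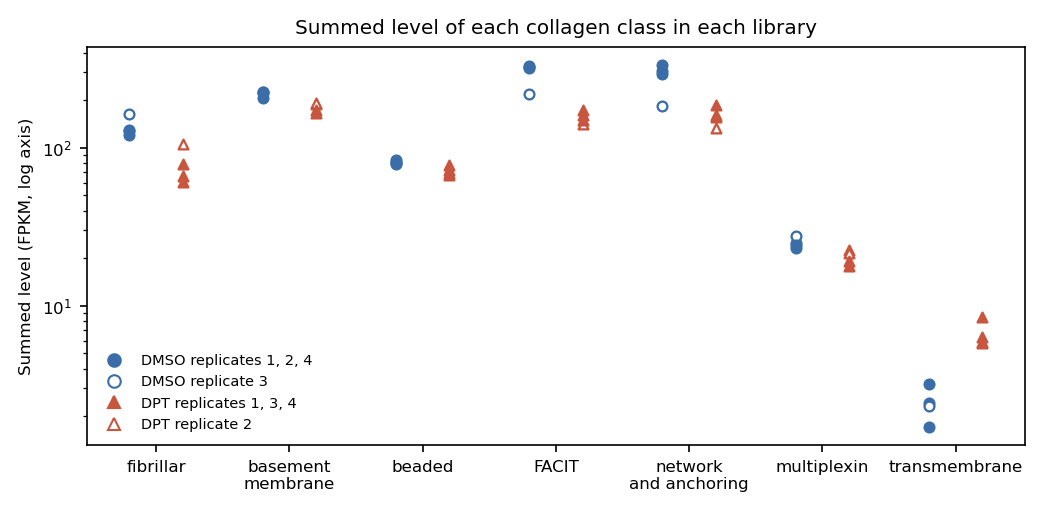
Summed FPKM of each collagen class in each library (log axis, circles for DMSO, triangles for DPT, open symbols for DMSO replicate 3 and DPT replicate 2). The FACIT, fibrillar and basement membrane sums are lower in every DPT library than in any DMSO library, and the transmembrane sum is higher.

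Chains of 1 molecule were compared by the ratio of their FPKM within each library. In the usual type I molecule COL1A1 chains outnumber the COL1A2 chain, while here COL1A2 was the more abundant message in every library. The COL1A2 to COL1A1 ratio was 30.8, 27.3, 15.03 and 27.4 in DMSO and 24.4, 12.5, 15.7 and 16.4 in DPT. The pair was the lowest of each group and the groups overlapped. The mean difference was -0.54 on the log2 scale from FPKM and -0.31 from CPM, as the gene length behind COL1A1 was 5.91 kb in the DMSO libraries and DPT replicate 1 and 5.32, 4.69 and 4.46 kb in DPT replicates 2 to 4.

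The COL4A1 to COL4A2 ratio hardly varied within a group, at 0.491, 0.484, 0.494 and 0.493 in DMSO and 0.442, 0.458, 0.456 and 0.462 in DPT. The pair did not stand out here, and the groups did not overlap, with a difference of -0.11 on the log2 scale. The COL4A5 to COL4A6 ratio was 4.41, 3.45, 3.15 and 3.89 in DMSO and 3.01, 2.87, 2.68 and 3.09 in DPT. These did not overlap either (-0.35 from FPKM, -0.27 from CPM).

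The COL6A1 to COL6A2 ratio was 1.08, 1.06, 1.27 and 1.03 in DMSO and 0.992, 1.05, 1.05 and 0.952 in DPT, with overlap. COL5A1 exceeded COL5A2, its usual partner in type V collagen, 103- to 135-fold in DMSO and 45.9- to 108.6-fold in DPT, with overlap. COL6A1 exceeded COL6A3 314- to 5090-fold in DMSO and 318- to 978-fold in DPT, a ratio that rests on the few counts of COL6A3.

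**Figure D4:**
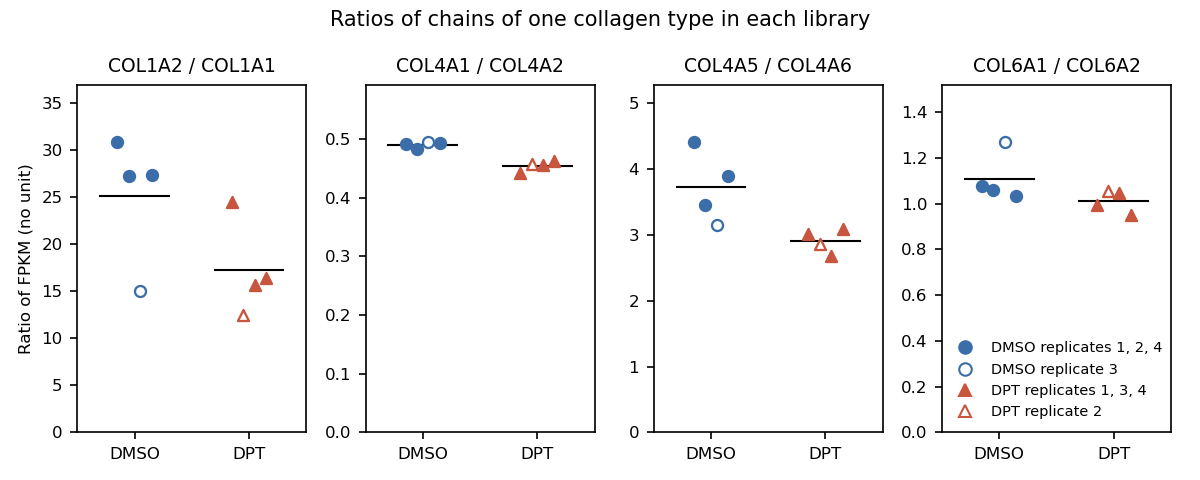
Ratio of the FPKM of chains of one collagen type in each library (no unit, axes from 0, lines at the group means), with circles for DMSO, triangles for DPT and open symbols for DMSO replicate 3 and DPT replicate 2. The COL4A1 to COL4A2 ratio is 0.484 to 0.494 in DMSO and 0.442 to 0.462 in DPT, while the COL1A2 to COL1A1 ratio overlaps between the groups.

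Genes that make, process, bind or cut collagens were counted in 5 lists, with 60 of 85 genes tested. Of these, 12 fell and 4 rose in 8 libraries, or 26.7% of the 60 beside 11.0% of all tested genes. With the pair term 26 fell and 8 rose (56.7%, beside 34.0%), and from the other 6 libraries 30 fell and 8 rose of 62 tested (61.3%, beside 34.1%). In 8 libraries the median log2 fold change of the 60 was -0.14, and without DPT replicate 2 the number that fell was 21, against 6 without DMSO replicate 1, 2 or 4 or DPT replicate 3 or 4.

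**Figure D5:**
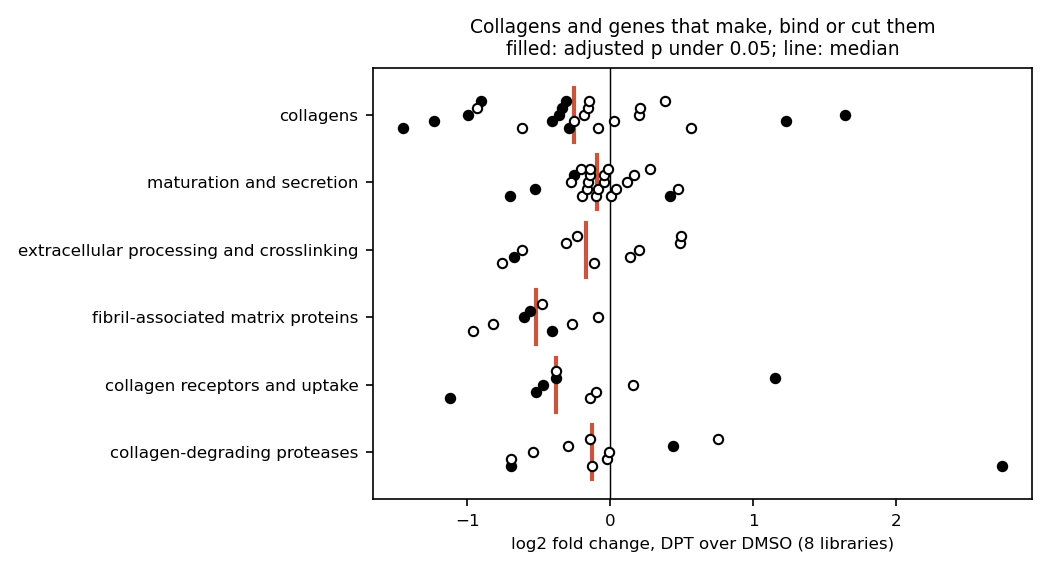
Log2 fold change, DPT over DMSO in 8 libraries, of the 23 tested collagens and of the tested genes of 5 lists, filled where the adjusted p is under 0.05, with the median of each as a line. All 8 fibril-associated genes lie at or below -0.08, and MMP1 among the proteases lies highest at 2.74.

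All 22 genes of collagen maturation and secretion were tested, and 3 fell and 1 rose (median -0.09). With the pair term 6 fell and 3 rose, and from the other 6 libraries 9 fell and 2 rose. In 8 libraries 18.2% of the list was called, beside 11.0% of all tested genes, and with the pair term 40.9%, beside 34.0%. From the other 6 libraries 40.9% of the list fell, beside 17.1% of all tested genes. PLOD2, the lysyl hydroxylase of the collagen telopeptides, went from 2056 ± 48.9 to 1427 ± 28.8 CPM (log2 fold change -0.53, edgeR adjusted p = 0.000703). P3H2, a prolyl 3-hydroxylase, went from 39.0 ± 1.85 to 24.1 ± 4.84 CPM (-0.70, edgeR adjusted p = 0.0102). SERPINH1, the collagen chaperone HSP47, went from 288.1 ± 14.6 to 242 ± 14.6 CPM (-0.25, edgeR adjusted p = 0.0428). LARP6, which binds the messages of type I collagen, rose from 39.0 ± 3.24 to 52.0 ± 6.12 CPM (0.42, edgeR adjusted p = 0.0286). The prolyl 4-hydroxylase subunits did not pass in 8 libraries, with -0.16 for P4HA1 (edgeR adjusted p = 0.174) and 0.47 for P4HA2 (0.0941). P4HA2 rose with the pair term (0.50, edgeR adjusted p = 0.000983) and from the other 6 libraries (0.67, 6.11e-06). P4HA1 fell from the other 6 libraries (-0.21, edgeR adjusted p = 0.0232) and did not pass with the pair term (0.0612).

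Of 10 tested genes of extracellular processing and crosslinking, LOXL2 fell and 9 did not pass (median -0.17), while 4 fell and 1 rose with the pair term and, of 11 tested, from the other 6 libraries. In 8 libraries 10.0% of this list was called, not more than the 11.0% of all tested genes. From the other 6 libraries 45.5% was called, beside 34.1%, and with the pair term 40.0% fell, beside 17.0%. LOXL2, a lysyl oxidase that crosslinks collagen, went from 414 ± 27.9 to 260.2 ± 34.7 CPM (-0.67, edgeR adjusted p = 0.00402). Its relative LOX stood at a log2 fold change of 0.14 (edgeR adjusted p = 0.82). LOX rose with the pair term (0.16, edgeR adjusted p = 0.00779) and from the other 6 libraries (0.22, 0.000483). Of 8 tested fibril-associated matrix genes, 3 fell in 8 libraries and 7 with the pair term and from the other 6 libraries (median -0.52 in 8 libraries). That is 37.5%, 87.5% and 87.5% of them, beside 5.29%, 17.0% and 17.1% of all tested genes that fell. FN1, fibronectin, went from 249 ± 15.6 to 187.5 ± 28.4 CPM (-0.41, edgeR adjusted p = 0.0359). TNXB, a tenascin that binds fibrils, went from 1951 ± 201 to 1322 ± 175 CPM (-0.56, edgeR adjusted p = 0.0115), a value that is uncertain because a near-identical partial copy, TNXA, lies beside it. The third was TGFBI, named after its values were seen, at 652 ± 92.2 and 429 ± 107.7 CPM (-0.60, edgeR adjusted p = 0.0441). SPARC, a collagen-binding matrix protein, stood at -0.27 (edgeR adjusted p = 0.266) and passed without DPT replicate 2 (-0.42, 0.0186). In the 7 fits that left out another single library SPARC did not pass (edgeR adjusted p up to 0.489).

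Collagen receptors and uptake genes moved in both directions, with 4 of 9 tested genes lower and 1 higher (median -0.38), 6 lower and 1 higher with the pair term, and 6 lower and 2 higher from the other 6 libraries. The called share was 55.6%, 77.8% and 88.9% in these fits, beside 11.0%, 34.0% and 34.1% of all tested genes. The collagen-binding integrin chains differed in sign, with ITGA2 the only one to rise. ITGA2 rose from 135 ± 25.2 to 299.8 ± 111.6 CPM (1.15, edgeR adjusted p = 0.0302, limma voom adjusted p = 0.0527), and ITGA11, which binds fibrillar collagen, fell from 28.2 ± 2.72 to 12.9 ± 0.886 CPM (-1.12, edgeR adjusted p = 0.000416). DPT replicate 2, at 139 CPM of ITGA2, lay among the DMSO libraries (98.4 to 156 CPM). ITGA1 (-0.38, edgeR adjusted p = 0.265), ITGA10 (-0.10, 0.872) and ITGB1 (-0.14, 0.222) did not pass in 8 libraries. With the pair term and from the other 6 libraries ITGA1 and ITGB1 fell. MRC2, an endocytic collagen receptor, went from 198 ± 11.0 to 143 ± 15.3 CPM (-0.47, edgeR adjusted p = 0.00894). The collagen receptor kinases DDR1 (-0.38, edgeR adjusted p = 0.0476) and DDR2 (-0.52, edgeR adjusted p = 0.041) also fell.

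Of 11 tested collagen-degrading proteases, 2 rose and 1 fell (median -0.13), 3 rose and 3 fell with the pair term, and 3 rose and 4 fell of 12 tested from the other 6 libraries. The called share was 27.3%, 54.5% and 58.3% in these fits, beside 11.0%, 34.0% and 34.1% of all tested genes. MMP1, the interstitial collagenase, rose from 0.766 ± 0.334 to 5.15 ± 2.89 CPM (2.74, edgeR adjusted p = 0.0111, limma voom adjusted p = 0.0515), from a low level. MMP14, a membrane-bound collagenase, rose from 232 ± 9.43 to 315 ± 11.1 CPM (0.44, edgeR adjusted p = 0.0027). MMP15, a relative of MMP14, went from 57.9 ± 10.0 to 35.9 ± 6.32 CPM (-0.69, edgeR adjusted p = 0.0206). MMP2, a gelatinase, stood at -0.54 (edgeR adjusted p = 0.0556) and passed without DPT replicate 2 (-0.74, 0.000842). In the 7 fits that left out another single library MMP2 did not pass (edgeR adjusted p up to 0.154).

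Of the 16 calls in these lists, 8 were lost when some of the single libraries were left out. This held for SERPINH1 (edgeR adjusted p 0.0752 to 0.126), LARP6 (0.0505 to 0.0905), ITGA2 (0.0674 to 0.092) and DDR2 (0.0755 to 0.118) without any library but the pair. FN1 (0.0544 to 0.11) and TGFBI (0.0671 to 0.13) lost theirs without any library but DPT replicate 2. DDR1 did so without any library but DMSO replicate 3 or DPT replicate 1 (0.0577 to 0.136), and MMP15 without DMSO replicate 1, 2 or 4 or DPT replicate 3 or 4 (0.0579 to 0.0684).

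Markers of the labelled tissue and of other collagen-making cells were read beside the collagens. Of 13 mesothelial markers, 9 reached 1 FPKM, among them MSLN, WT1 and CALB2, with ITLN1 at 0. Their summed level was 2079 to 3028 FPKM in DMSO and 1377 to 2215 in DPT. Over all libraries MSLN lay at 6.27 to 8.69 FPKM, WT1 at 4.39 to 6.99 and CALB2 at 5.78 to 12.9. KRT7 alone lay at 188 to 516 FPKM, so the sum says little of those low markers. UPK3B fell (log2 fold change -1.07, edgeR adjusted p = 0.0271). MSLN (-0.38), WT1 (0.21) and CALB2 (0.59) did not pass in 8 libraries by edgeR. Of 12 fibroblast markers, 5 reached 1 FPKM (ACTA2, PDGFRB, TAGLN, THY1 and S100A4), and the defining fibroblast matrix genes DCN and LUM were at 0 in every library. The fibroblast sum was 201 to 246 FPKM in DMSO and 163 to 229 in DPT. PDGFRB fell (log2 fold change -1.30, edgeR adjusted p = 0.000884), and the others stood at -0.34 (THY1), -0.31 (S100A4), 0.29 (ACTA2) and 0.55 (TAGLN) without passing in 8 libraries. Leukocyte markers (2 of 12 at 1 FPKM, with MS4A1 at 0) summed to 60.7 to 92.1 FPKM in DMSO and 61.3 to 99.6 in DPT, and endothelial markers (2 of 9) to 20.8 to 28.7 and 22.6 to 31.3. In 8 libraries 2 of 11 tested mesothelial markers and 1 of 5 tested fibroblast markers fell, beside 5.29% of all tested genes. With the pair term 7 mesothelial markers fell and 1, CALB2, rose. Of the fibroblast markers 3 fell and 1, TAGLN, rose, beside 17.0% of all tested genes that fell and 16.9% that rose. The same numbers came from the other 6 libraries, with 6 fibroblast markers tested. KDR and TIE1 of 5 tested endothelial markers rose in 8 libraries by edgeR (limma voom called neither), and 3 rose with the pair term and from the other 6 libraries. Of all tested genes 5.68%, 16.9% and 17.0% rose in these fits. Only TIE1 and EGFL7 reached a mean of 1 FPKM, so KDR lay below that level. The 2 tested leukocyte markers did not pass in 8 libraries by edgeR, DESeq2 or limma voom, while with the pair term and from the other 6 libraries CD14 fell and CD68 rose. The part of these markers in the collagen differences was not tested.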

How the data were processed

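RNA was sequenced from 4 DMSO and 4 DPT libraries of H2452 cells. Per the file headers, the deposited table gives an expected count and an FPKM value for each of 20323 genes and library, both made by the authors. The submitters' processing notes name RSEM, HISAT2, DESeq2, fastp 0.18.0, StringTie 1.3.1 and the build hg38. Neither their roles and settings nor any use of strand in counting is given in the sources used here. By GENCODE gene models, 11 of the 23 tested collagens overlap a gene on the opposite strand, 3 of them (COL4A1, COL4A2 and COL18A1) one with counts in the table.

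Expected counts, of which 10.8% were not whole, were rounded. Counts were analysed in R 4.3.3 with edgeR 4.0.16, using filterByExpr (minimum count 10, minimum total 15), TMM scaling and the quasi-likelihood test. All 8 libraries were used, and 12648 genes were kept. The same fit was run on simulated counts that held no difference for the pair, so that run does not cover this feature. P-values were adjusted over all 12648 genes by the Benjamini-Hochberg method. An adjusted p passes under 0.05, and only then is a gene said to have risen or fallen. Fold changes are DPT over DMSO, and levels are mean ± SD (n = 4). FPKM values were used for description only. The labels do not say that the replicates came from separate cultures beyond calling them biological, so p-values measure the spread between these libraries.

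The collagen genes, the 5 lists, the marker lists and the alternatives were chosen with earlier results of these data known. Every collagen is named, with the value in each library where its mean reached 1 FPKM in a group. Of each list the 2 higher and 2 lower called genes with the smallest adjusted p are named, and P4HA1, P4HA2, PLOD2, SERPINH1, LOX, LOXL2, ITGA2, ITGA11, DDR1, DDR2, MMP1, MMP2, MMP14, SPARC and FN1 in any case. ITGA1, ITGA10 and ITGB1 were named after their values were seen. Alternatives were RLE size factors, library totals, DESeq2 1.42.0, limma 3.58.1 (voom, and log2 FPKM with a pseudocount of 0.1 or 1), other filters, a replicate block, the pair term, the other 6 libraries and each library left out. Promoter sequences are from RefSeq (GRCh38.p14), which matched 32 of the 44 collagens. COL1A1, COL1A2, COL3A1, COL6A1 and COL8A1 had no entry.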

Additional observations from a re-analysis of the deposited data

Results flagged for a closer look

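In 52 groups of 4 libraries (collagen FPKM and chain ratios), 5 held a library whose gap to its nearest neighbour was more than 0.829 of the group's range, and all 5 were DMSO replicate 3. Chance flags about 1 in 20 groups, and these values come from 1 library. DMSO replicate 3 had 76.4 FPKM of COL5A1, where the other DMSO libraries had 47.1 to 51.4. It had 4.60 FPKM of COL1A1 (others 2.03 to 2.27) and 46.7 FPKM of COL6A1 (others 40.7 to 41.3). It was low in COL12A1, at 219 FPKM (others 317 to 328). Its log2 ratio of COL1A2 to COL1A1 was 3.91 (others 4.77 to 4.95). The cause was not tested.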

How the results depend on the processing

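The 11 collagens called from 8 libraries kept their direction under every alternative run. COL1A2, COL3A1, COL12A1, COL8A1, COL13A1 and COL17A1 passed under all of them. Library totals as the only scaling left 6 collagens lower and 7 genes of the 5 lists lower. The median log2 fold change of all genes was then 0.0395, where TMM gave -0.0018. Of all calls 64.9% were higher (969 higher and 523 lower), where TMM made 51.8% higher. The labels do not pair the libraries, and same-numbered libraries deviated from their group means with correlations of 0.204, -0.314, -0.396 and 0.209. With a replicate block, calls were 171 genes higher and 174 lower, 4 collagens lower, and 2 genes of the lists higher and 5 lower, without COL4A1, COL4A2, COL4A5, COL6A1 and COL18A1. With the pair term, 2140 genes were higher and 2156 lower, 4 collagens higher, and 8 list genes higher and 26 lower, and from the other 6 libraries 2158, 2169, 4, 8 and 30. With voom, 2 list genes were higher, without ITGA2 and MMP1. Leaving out each library in turn gave 332 to 1183 genes higher and 311 to 1108 lower (718 and 669 with all), 2 to 3 collagens higher and 5 to 11 lower, and 2 to 5 list genes higher and 6 to 21 lower. Each library but DMSO replicate 3 moved the counts over all genes by more than 1.5 times.

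Signs turned for 4 genes that did not pass in 8 libraries without the pair term. With each library left out in turn, COL5A2 ranged from -0.103 to 0.178 and was below 0 without DMSO replicate 1, DMSO replicate 2, DPT replicate 3 or DPT replicate 4. COL11A2 was at 0.125 and 0.044 in limma on log2 FPKM with pseudocounts of 0.1 and 1. COL8A2 ranged from -0.324 to 0.004 and LOX from -0.143 to 0.491, each with its other sign without DPT replicate 2. The cause was not tested. Depth limits the 21 untested collagens.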
